A study of Citrus reticulata with 36 samples.

Results

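The ovule integument of the ponkan cultivar "Huagan No.4" (HG, Citrus reticulata, a mandarin-type citrus) was compared between 28 and 18 days after pollination (DAP). The comparison took the 3 HG integument libraries of the second stage against the 3 of the first, which makes 6 of the 36 libraries in the series, and it covers all gene identifiers that passed a filter on low counts. The whole series addressed seed abortion and sampled integument and nucellus at 18, 28 and 32 DAP in HG and in a second cultivar, "Egan No.1" (EG), with 3 stated biological replicates in each of the 12 groups. All tissue was cut from ovule sections by laser capture microdissection, and its RNA was amplified as cDNA with random primers before sequencing. The groups compared here were HG integument at 28 DAP, HG integument at 18 DAP and, beside them, HG nucellus and EG integument of the same stages. HG and EG integument at 32 DAP and EG nucellus at all stages are drawn on where named, and the model used all 12 groups. No treatment or altered genotype is given in the labels for any of these groups.

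The integument is the outer layer of maternal tissue of the ovule, and after fertilisation it develops into the seed coat. The nucellus lies inside it and surrounds the embryo sac, in which the embryo and endosperm form. The growing seed coat is known as a tissue of cell expansion, pigment and cell wall formation and as a route by which the mother plant feeds the embryo. The deposited identifiers carry no gene names, so none of these processes could be followed by its genes, and the account below goes by identifier, level and pattern.

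Total counts were 17228193 to 20027406 in the 28 DAP libraries and 15091756 to 16938580 in the 18 DAP libraries, and 59474 to 62576 and 58421 to 63014 identifiers had a count. The 10 most abundant identifiers took 15.2% to 24.4% of the counts at 28 DAP and 14.6% to 17.6% at 18 DAP. Replicate 3 at 18 DAP lay farthest from the 28 DAP libraries: its Spearman correlation over identifiers was 0.848 to 0.880 with the 28 DAP libraries, where replicates 1 and 2 at 18 DAP gave 0.915 to 0.937. With replicates 1 and 2 of its own stage it gave 0.937 and 0.900. Within a stage the correlations were 0.932 to 0.974 at 28 DAP and 0.900 to 0.946 at 18 DAP. Replicates 2 and 3 at 28 DAP were the closest pair and replicate 1 at 28 DAP lay nearer to the 18 DAP libraries. Results that rest on 1 library are given below with and without it. No label links the captured tissue with the fruit or tree it came from. Where libraries of a group share one, the p-values here are too small.

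A positive log2 fold change means a higher level at 28 DAP. The fitted values had a median of 0.00 over the 57344 identifiers tested, and the middle 50% of identifiers lay between -0.47 and 0.49. The standard error (SE) of a single log2 fold change had a median of 0.50, and of 0.35 among the 28583 identifiers that averaged at least 5 CPM (counts after scaling every library to the same size) over the 6 libraries. By edgeR's quasi-likelihood F test with Benjamini-Hochberg adjustment, 10 identifiers passed an adjusted p of 0.05, which is 0.0174% of those tested. Of these, 3 rose (0.00523%) and 7 fell (0.0122%). The count depended strongly on the method: on the same libraries DESeq2 called 915 (353 higher, 562 lower) and limma voom with sample weights 8735 (3876 higher, 4859 lower), while edgeR on the 18 integument libraries called 0. In the main test 8330 identifiers had an unadjusted p under 0.05 (14.5%), 3983 of them higher (6.95%) and 4347 lower (7.58%) at 28 DAP.

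Counted without a model, many more identifiers had no overlap between the stages. In 6913 identifiers (12.1%) all 3 libraries at 28 DAP stood above all 3 at 18 DAP, and in 6633 (11.6%) all 3 stood below. Both directions together held 23.6%. Under an exact permutation of 3 against 3, such separation in either direction has a probability of up to 0.1 without any stage difference. The excess was not tested. Without TMM scaling the counts were 5746 higher and 7361 lower. The most abundant identifiers leaned downward. Of the 875 identifiers that averaged at least 100 CPM over the 6 libraries, 22.7% were lower without overlap and 8.91% higher, with a median log2 fold change of -0.17, and none of them was called. In the class of 5 to 20 CPM, which held 18765 identifiers, 12.3% were lower without overlap and 14.5% higher, with a median of 0.05. The class of 20 to 100 CPM held 6 of the 10 called identifiers.

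**Figure D1:**
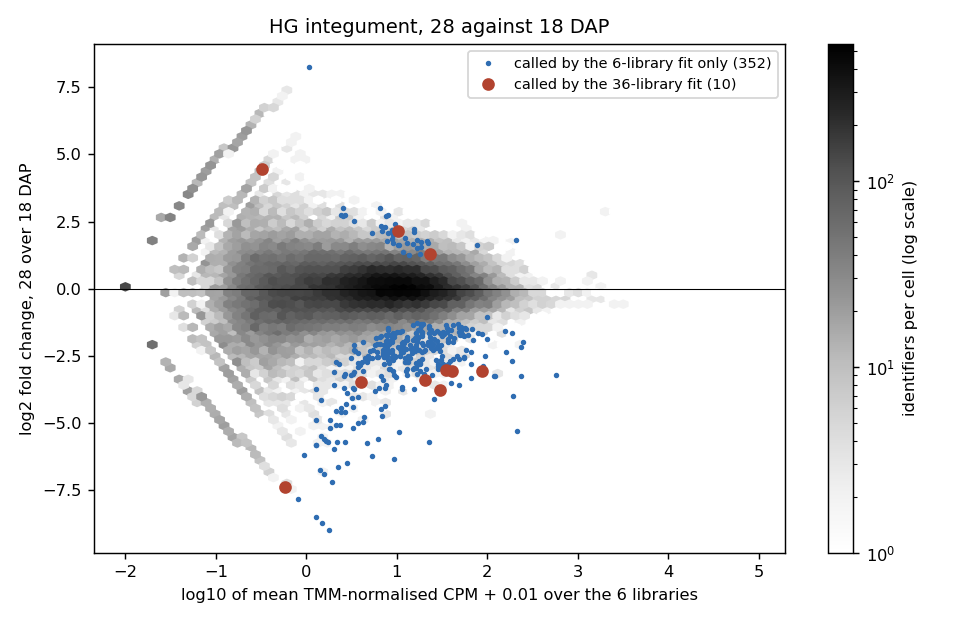
Log2 fold change in HG integument (28 over 18 DAP, vertical axis) against the log10 of the mean TMM-normalised CPM plus 0.01 over the 6 libraries (horizontal axis). Grey cells count tested identifiers on a log scale, red points are the 10 identifiers called with all 36 libraries in the model, and blue points are those called only when the 6 libraries were fitted alone. Most blue points lie below 0.

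The identifier with the larger fold change of the 2 named rises was c93268_g1, whose effective length, inferred from its counts and FPKM, was 893 bases. It had 9.07, 22.6 and 18.6 CPM in the 28 DAP integument libraries, against 3.53, 2.81 and 5.13 CPM at 18 DAP. The groups did not overlap, although replicate 1 at 28 DAP lay well below the other 2. The means were 16.8 ± 6.96 CPM at 28 DAP and 3.82 ± 1.19 CPM at 18 DAP (SD, n = 3 each). The log2 fold change was 2.13 (SE 0.35, edgeR adjusted p = 0.0250). Among the means of the 12 groups of the series, HG integument at 18 DAP was the lowest and HG integument at 28 DAP the highest. At 32 DAP the HG integument mean was 7.66 ± 1.94 CPM (SD, n = 3).

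The second named rise, c83852_g1 with an effective length of 1255 bases, had the tightest replicates of the 4 named identifiers. Its levels were 31.7, 34.8 and 31.5 CPM at 28 DAP and 13.5, 13.7 and 13.1 CPM at 18 DAP. The groups were far apart relative to their spread, with means of 32.7 ± 1.83 CPM and 13.4 ± 0.30 CPM (SD, n = 3 each). The log2 fold change was 1.28 (SE 0.21, edgeR adjusted p = 0.0250). HG integument at 28 DAP was again the highest of the 12 groups. At 32 DAP the mean was 20.6 ± 6.24 CPM (SD, n = 3). Per length, the 2 rises stood at similar levels at 28 DAP: c93268_g1 averaged 17.8 FPKM at 28 DAP and 4.21 FPKM at 18 DAP, and c83852_g1 averaged 24.9 FPKM at 28 DAP and 10.6 FPKM at 18 DAP.

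Of the named falls, c35172_g1 (effective length 1181 bases) had 5.06, 4.57 and 2.57 CPM at 28 DAP and 35.0, 29.6 and 101.7 CPM at 18 DAP. Replicate 3 at 18 DAP was higher than the other 2 libraries of that stage together, yet even the lowest 18 DAP library was far above the highest at 28 DAP. The means were 4.07 ± 1.32 CPM at 28 DAP and 55.4 ± 40.2 CPM at 18 DAP (SD, n = 3 each), with a log2 fold change of -3.77 (SE 0.66, edgeR adjusted p = 0.0328). The level at 32 DAP was 21.7 ± 15.1 CPM (SD, n = 3). HG integument at 28 DAP had the lowest mean of the 12 groups, and at 18 DAP the highest of the 6 integument groups.

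The other named fall, c94789_g1 (effective length 1749 bases), was nearly off at 28 DAP. It had 0.946, 0.241 and 0.751 CPM at 28 DAP, from 17, 4 and 14 counts. The 18 DAP libraries had 6.71, 8.24 and 6.96 CPM, from 114, 129 and 99 counts. Replicates at 18 DAP stayed close together, while those at 28 DAP were spread relative to their low level. The means were 0.646 ± 0.364 CPM at 28 DAP and 7.30 ± 0.821 CPM at 18 DAP (SD, n = 3 each). The log2 fold change was -3.48 (SE 0.60, edgeR adjusted p = 0.0328). This identifier was mainly a nucellus one: in EG it was called higher in nucellus than in integument over the 3 stages, with a log2 difference of 3.39 (SE 0.33, edgeR adjusted p = 2.98e-09). In EG, c35172_g1 was also called higher in nucellus, by 1.77 on the log2 scale (SE 0.35, edgeR adjusted p = 0.000271). Its mean of 55.4 CPM in HG integument at 18 DAP nevertheless ranked number 2 among the 12 groups.

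**Figure D2:**
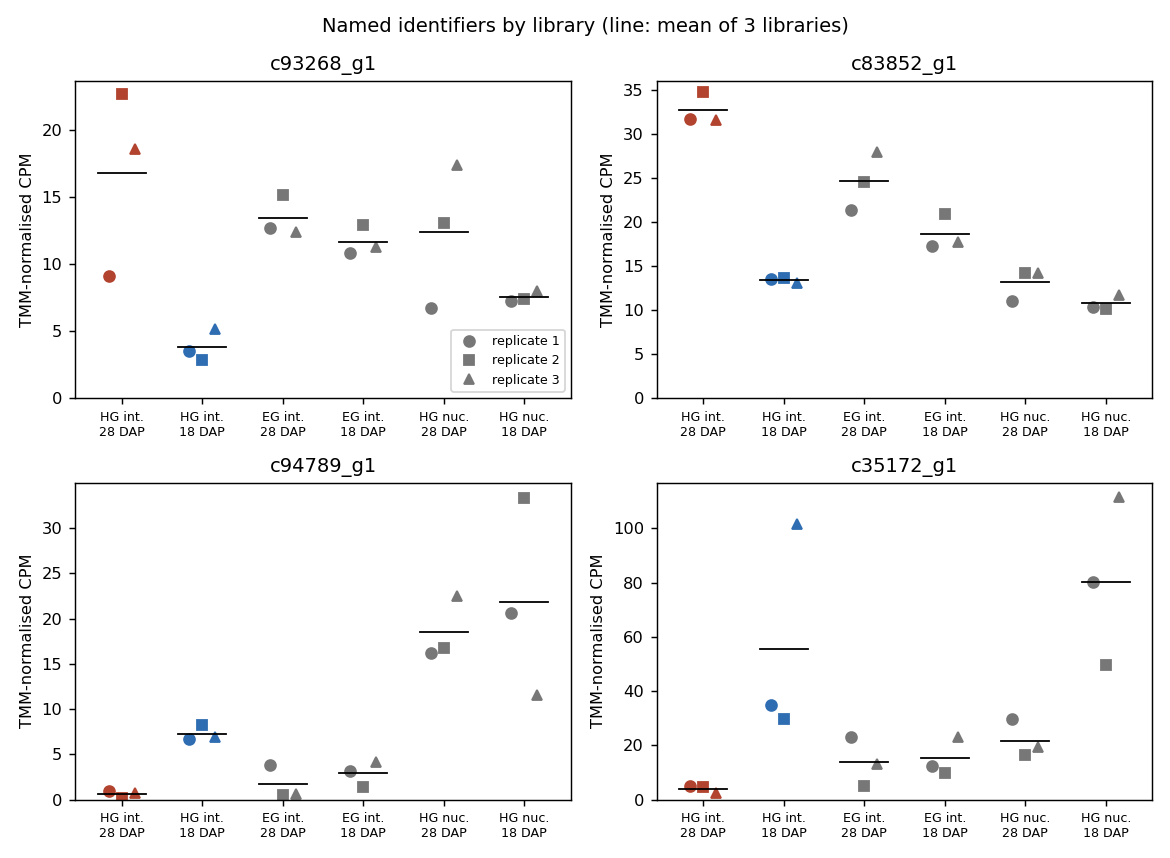
TMM-normalised CPM (vertical axis, from 0) of the 4 named identifiers in single libraries of HG integument, EG integument and HG nucellus at 28 and 18 DAP. Symbols mark the replicate number and lines the mean of 3 libraries. In HG integument the 28 DAP libraries of each identifier stand apart from those at 18 DAP, while in EG integument the 2 stages overlap for all but c83852_g1.

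The other 6 called identifiers are given by value. Of the falls, 3 were abundant at 18 DAP: their means were 18.7 ± 2.69 CPM at 28 DAP against 155 ± 80.6 CPM at 18 DAP, 8.83 ± 3.30 against 73.2 ± 45.5 CPM, and 7.75 ± 0.887 against 62.5 ± 35.3 CPM (SD, n = 3 each). Their log2 fold changes were -3.05, -3.05 and -3.01. In all 3 the highest library at 18 DAP was replicate 3. Another fall averaged 3.60 ± 0.347 CPM at 28 DAP and 37.5 ± 20.5 CPM at 18 DAP, with 37.6 ± 23.1 CPM at 32 DAP (SD, n = 3 each). Its mean at 32 DAP was close to that at 18 DAP, and the step from 28 to 32 DAP, which uses the same 28 DAP libraries, was called as well (log2 3.38, edgeR adjusted p = 0.0174). In EG this identifier was called higher in integument, with a log2 difference of nucellus minus integument of -0.963 (SE 0.320, edgeR adjusted p = 0.0271).

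The remaining 2 called identifiers had few counts. One fall had 0 counts in every 28 DAP library and 12, 32 and 10 counts at 18 DAP, which is at least 20.4-fold lower at 28 DAP when 3 counts over the group are taken as the limit. It was called higher in EG nucellus than in EG integument, by 3.13 on the log2 scale (SE 0.46, edgeR adjusted p = 5.48e-06). The third rise had 11, 12 and 9 counts at 28 DAP and 1, 0 and 0 counts at 18 DAP, a ratio of 28.2 with an exact 95% interval of 4.71 to 1147 that covers counting error only. Its level at 28 DAP was no peak: it was ninth of the 12 group means, and 18 DAP was the lowest.

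The called identifiers were chosen for a difference between HG integument at 18 and 28 DAP. Extreme ranks of these groups were therefore partly fixed by that choice. Among the 7 falls the ranks were as follows. The 18 DAP mean was the highest of the 6 integument groups in 6 of them, and the 28 DAP mean the lowest of the 6 in 5. Replicate 3 was the highest of the 18 DAP libraries in 5 of the 7, and in 37.5% of all identifiers tested. In HG nucellus at 18 DAP, replicate 3 was the highest in 4 of the 7. In the 3 rises, the 18 DAP mean was the lowest of the 6 integument groups in all 3 and the 28 DAP mean the highest in 2. Over the 30 libraries outside the comparison, c94789_g1 and the identifier with 0 counts at 28 DAP varied together (Pearson r 0.93 on log2 CPM), as did a pair of the abundant falls (r 0.94). These correlations are descriptions over libraries that share tissue and cultivar.

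The 10 calls depended on single libraries. Without replicate 3 at 18 DAP none was called, with 4842 identifiers at an unadjusted p under 0.05 in edgeR. The same happened without replicate 2 at 28 DAP (4831 identifiers) and without replicate 3 at 28 DAP (6055 identifiers). Without replicate 1 at 28 DAP 17 were called, of which 3 were among the 10. Without replicate 1 at 18 DAP 16 were called (7 among the 10), and without replicate 2 at 18 DAP 9 (5 among the 10). The fold changes of the named identifiers kept their direction throughout: leaving out 1 library in turn gave 1.85 to 2.45 for c93268_g1, 1.24 to 1.32 for c83852_g1, -4.05 to -2.99 for c35172_g1 and -3.82 to -3.10 for c94789_g1.

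EG integument, which shares no library with the HG comparison, gives the same step in the other cultivar. Same-numbered HG and EG integument libraries had correlated deviations from their group means at 18 DAP (r 0.12, 0.45 and 0.65), with r of 0.08, 0.14 and -0.02 at 28 DAP, so the 2 cultivars may not be independent at 18 DAP. For the named rises, c93268_g1 averaged 13.4 ± 1.49 CPM at 28 DAP and 11.6 ± 1.08 CPM at 18 DAP in EG, a log2 change of 0.20 (SE 0.33), and c83852_g1 averaged 24.6 ± 3.32 CPM and 18.7 ± 2.01 CPM, a change of 0.40 (SE 0.21; SD, n = 3 each). For c93268_g1 the 2 cultivars overlapped at 28 DAP, while at 18 DAP all 3 HG libraries lay below all 3 EG libraries. For the named falls, c35172_g1 averaged 13.9 ± 8.94 CPM at 28 DAP and 15.2 ± 6.99 CPM at 18 DAP in EG, and c94789_g1 averaged 1.69 ± 1.89 CPM and 2.92 ± 1.39 CPM (SD, n = 3 each). The EG change was -0.14 (SE 0.59) for c35172_g1 and -0.78 (SE 0.55) for c94789_g1. None of the 10 called identifiers passed the test in EG. Of the 10, 9 had the same sign of fold change there, but the share of all tested with the same sign is not given. Some of the 10 varied together over other libraries, so the count of signs does not show that the cultivars changed alike.

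The test of the difference itself, the HG step minus the EG step, called no identifier. The smallest adjusted p was 0.290 by edgeR, and 4739 identifiers had an unadjusted p under 0.05 (8.26%). DESeq2 called 28 and limma voom with sample weights 361. For c93268_g1 the difference of the steps was 1.93 on the log2 scale (SE 0.48, edgeR adjusted p = 0.518), and for c35172_g1 it was -3.63 (SE 0.86, edgeR adjusted p = 0.518). At 3 libraries a group, differences of this size did not pass when adjusted over all identifiers, which does not show that the cultivars changed alike.

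The step in HG integument ran along with that in HG nucellus and not with that in EG integument. Across the 28770 identifiers that averaged at least 5 CPM over the 36 libraries, the step in HG integument had a Pearson r of 0.62 and a Spearman rho of 0.60 with the step in HG nucellus. With the step in EG integument, r was -0.00 and rho -0.02. Leaving out 1 HG integument library in turn gave r of 0.55 to 0.67 with HG nucellus and -0.05 to 0.07 with EG integument. No EG library was left out in turn. The EG integument replicates of a single stage differed widely among themselves (given below), so a low r does not show that the EG step was a different one. Over all 57344 identifiers tested, r was 0.33 and rho 0.41 with HG nucellus, and r was 0.06 and rho 0.04 with EG integument. Identifiers are not independent replicates, so no p is given. HG integument and HG nucellus libraries with the same replicate number deviated together from their group means (r 0.71, 0.48 and 0.40 at 28 DAP and 0.13, 0.35 and 0.45 at 18 DAP), and each library was closest to its own number. Whether the 2 tissues of a replicate came from the same ovules is not given in the labels, and the part of such sharing in the common step was not tested.

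**Figure D3:**
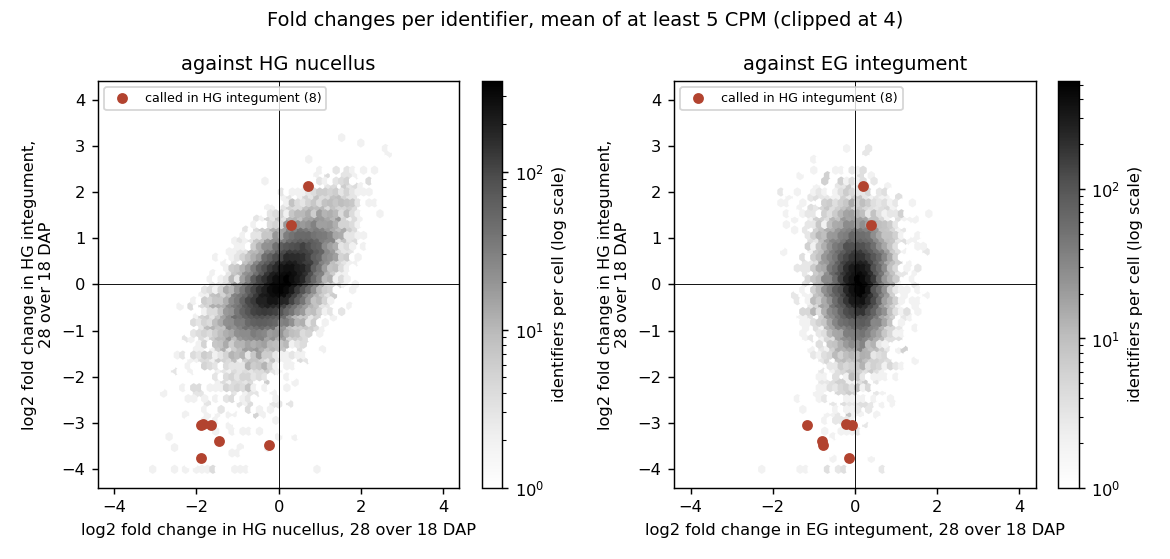
Log2 fold change (28 over 18 DAP) in HG integument (vertical axis) against that in HG nucellus (left, horizontal axis) and in EG integument (right, horizontal axis) for the 28770 identifiers of at least 5 CPM on average, clipped at 4. Grey cells count identifiers on a log scale and red points are the 8 called identifiers among them. The cloud is tilted in the left panel and upright in the right one.

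Among the called identifiers the likeness to HG nucellus was partial. In HG nucellus c35172_g1 averaged 21.8 ± 7.08 CPM at 28 DAP and 80.4 ± 30.9 CPM at 18 DAP (SD, n = 3 each), a log2 change of -1.88 (SE 0.60, edgeR adjusted p = 0.200). The nucellus-type identifier c94789_g1 stood at 18.5 ± 3.47 CPM at 28 DAP and 21.8 ± 10.9 CPM at 18 DAP there (SD, n = 3 each), a change of -0.24 (SE 0.50). The difference between its integument and nucellus steps was -3.23 (SE 0.77, edgeR adjusted p = 0.923). In HG nucellus the log2 difference was 0.72 (SE 0.34) for c93268_g1 and 0.29 (SE 0.21) for c83852_g1, neither past the threshold. Of the 10, 9 had the same sign in HG nucellus, a count with the same limits as that in EG integument. The test of the integument step minus the nucellus step called no identifier: the smallest adjusted p was 0.742 by edgeR, and 2810 had an unadjusted p under 0.05 (4.9%). DESeq2 and limma voom also called none.

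Identifiers that distinguish the 2 tissues were taken from the EG libraries alone, so that the HG comparison had no part in their choice. With a threshold of 32-fold over the 3 stages, 160 identifiers were called higher in EG nucellus and 563 in EG integument. The integument identifiers were present at both stages in HG. Their summed level was 6205, 6095 and 5707 CPM at 28 DAP and 5375, 5785 and 6534 CPM at 18 DAP, so the stages overlapped. The median member stood at 83.4% to 88.1% of its EG integument mean at 28 DAP and at 74.1% to 91.5% at 18 DAP, which bears out the integument label of all 6 libraries. The HG nucellus libraries of the 2 stages summed to 141 to 186 CPM at 28 DAP and 144 to 166 CPM at 18 DAP for the same list. In the HG step the median log2 fold change of the list was 0.16, with 102 members higher without overlap (18.1%, against 12.1% of all tested) and 112 lower (19.9%, against 11.6%). None was called, where 0.0174% of all tested were.

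The nucellus identifiers were at trace level in the HG integument, and lower at 28 DAP. Their summed level was 171, 84.1 and 123 CPM at 28 DAP and 231, 224 and 297 CPM at 18 DAP, with no overlap. In the HG nucellus libraries the same list summed to 15406 to 17906 CPM at 28 DAP and 21570 to 24763 CPM at 18 DAP. The median member stood at 0.201%, 0% and 0.0933% of its EG nucellus mean in the 28 DAP integument libraries and at 0.749%, 0.434% and 0.814% in those of 18 DAP. Without the most abundant member the sums were 139, 77.9 and 117 CPM at 28 DAP and 180, 176 and 241 CPM at 18 DAP, still without overlap. At such levels fewer nucellus cells in the captured tissue and less nucellus RNA per cell cannot be told apart, nor can either be told from a lower level in integument cells. The same holds for every level in these samples of many cells.

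Per member the difference was visible only where counts allowed. Of the 160, 142 had any count in the 6 libraries, and the median log2 fold change was -0.90, or -0.14 without replicate 1 at 18 DAP. Of the 160, 29 were lower without overlap (18.1%, against 11.6% of all tested) and 2 were higher (1.25%, against 12.1%). Of the 45 members with at least 30 counts over the 6 libraries, 37 were lower at 28 DAP, 24 of them without overlap, and 2 were higher without overlap. A share of all identifiers at the same limit on counts is not given. Over all tested, the share lower without overlap rose with abundance, from 6.02% under 0.5 CPM to 22.7% at 100 CPM or more. The share higher was 6.07% to 15.8% across the same classes. The median of these 45 was -1.39, and -1.42 to -1.05 when 1 library was left out in turn. None was called. The 4 called falls that EG expresses more in nucellus were not members, since their EG difference was under 32-fold. The part of nucellus RNA in those falls was not tested.

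**Figure D4:**
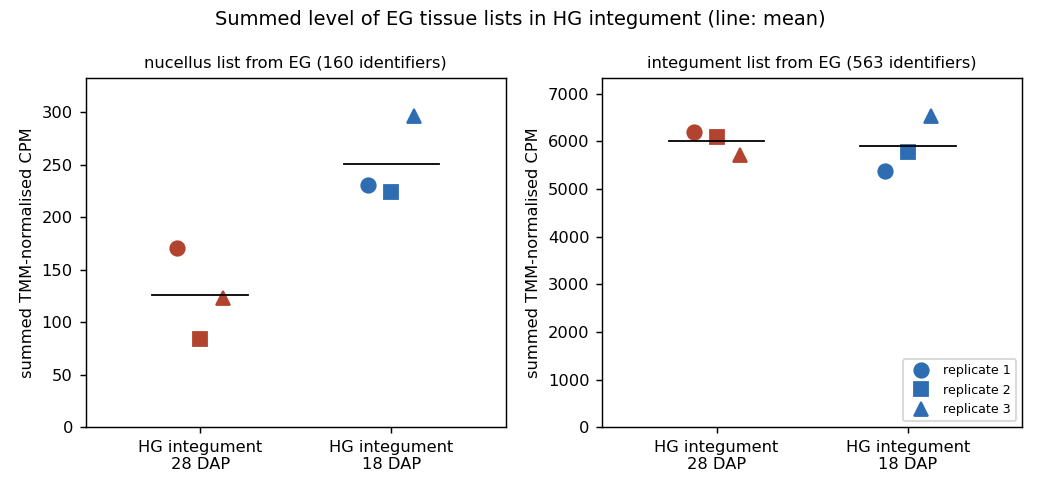
Summed TMM-normalised CPM (vertical axes, from 0) in the HG integument libraries at 28 and 18 DAP, for the 160 nucellus identifiers (left) and the 563 integument identifiers (right) chosen from EG. Symbols mark the replicate number and lines the mean. The 28 DAP libraries lie below the 18 DAP libraries in the left panel (84.1 to 171 CPM against 224 to 297 CPM) and overlap them in the right panel.

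The libraries of the EG integument differed among themselves within a stage, and the HG stages separated along the same axis. The main axis of these differences between replicates was computed from the 9 EG integument libraries as deviations from their own stage means, and it held 57.4% of that variance over 28770 identifiers. On this axis, HG integument scored -0.203, -0.0352 and -0.602 at 18 DAP, 0.163, 0.249 and 0.224 at 28 DAP and -0.0035, -0.732 and -0.153 at 32 DAP. The sign of such an axis is arbitrary and was set so that its weights correlated positively with the HG step. With that choice the 28 DAP libraries lay together on the positive side, and all libraries of the other 2 stages were below them. EG replicates of a single stage spanned as much: EG integument scored 0.104, 0.124 and -0.553 at 18 DAP, -0.660, 0.389 and -0.183 at 28 DAP and -0.0718, 0.429 and 0.421 at 32 DAP. The separation was not particular to integument. HG nucellus scored -0.0765, 0.00679 and -0.268 at 18 DAP and 0.0958, 0.0920 and 0.0920 at 28 DAP, also without overlap.

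The fold changes of the HG step correlated with the weights on this axis, with a Pearson r of 0.68 across identifiers, or 0.56 without replicate 3 at 18 DAP. Only the size of r is a result, since its sign was fixed with the direction of the axis. With the axis so directed, the weights had an r of 0.34 with the HG nucellus step and -0.14 with the EG integument step. The 500 identifiers at the positive end of the axis had a median log2 fold change of 1.51 in HG (1.05 without replicate 3 at 18 DAP and 2.23 without replicate 2 at 18 DAP), and 328 of them were higher at 28 DAP without overlap. The 500 at the negative end had a median of -2.03 (-1.51 without replicate 3 at 18 DAP), and 402 were lower without overlap. Over all tested identifiers the shares were 12.1% and 11.6%. No member of either end was among the 10 called. Replicate 3 at 18 DAP was low on the axis in both cultivars, and the correlation of the same-numbered libraries of HG and EG at that stage was 0.65. What sets the axis is not recorded in the labels, and its part in the HG step was not tested.

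**Figure D5:**
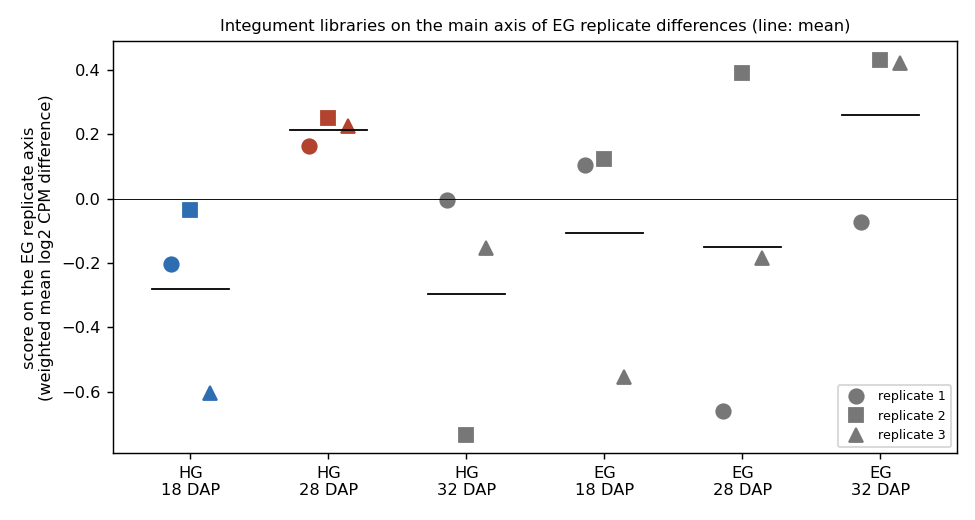
Score of each integument library (vertical axis, weighted mean log2 CPM difference) on the main axis of differences between EG integument replicates, by cultivar and stage (horizontal axis). Symbols mark the replicate number and lines the mean of 3 libraries. The direction of the axis was set to follow the HG step. The 3 HG libraries at 28 DAP lie between 0.163 and 0.249, all other HG integument libraries lie below 0, and the EG libraries of 1 stage are spread widely.

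A few very abundant identifiers behaved differently from the rest of the negative end. The 500 summed to 12269, 126197 and 35130 CPM at 28 DAP and 29076, 22496 and 49386 CPM at 18 DAP, since 20 of them alone made up 121901 CPM in replicate 2 at 28 DAP. The other 480 summed to 6181, 4295 and 3986 CPM at 28 DAP and 15548, 12264 and 35212 CPM at 18 DAP. The sum of the 480 was lower in every 28 DAP library than in any 18 DAP library, while that of the 20, which were picked for their level in replicate 2 at 28 DAP, was not.

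When the 6 libraries were fitted alone, edgeR called 360 identifiers (0.628%), with 41 higher (0.0715%) and 319 lower (0.556%) at 28 DAP, and 8 of the 10 identifiers above were among them. The 319 summed to 3152, 2566 and 2609 CPM at 28 DAP and 11421, 8999 and 21661 CPM at 18 DAP. The 41 summed to 997, 1223 and 1046 CPM at 28 DAP and 315, 340 and 281 CPM at 18 DAP. These sums describe lists chosen on the same libraries. Replicate 3 was the highest 18 DAP library in 286 of the 319 (89.7%), against 37.5% of all identifiers tested, and 119 of the 319 belonged to the 500 at the negative end of the EG replicate axis. The list was unstable: without 1 library in turn the fit on the remaining 5 called 0 (replicate 2 at 28 DAP or replicate 1 at 18 DAP) to 2079 identifiers (replicate 1 at 28 DAP), and 166 without replicate 3 at 18 DAP.

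Elsewhere in the series the 319 and the 41 behaved as follows. In HG integument at 32 DAP the 319 summed to 7382, 23684 and 10637 CPM and the 41 to 701, 245 and 508 CPM. From 28 to 32 DAP 97.8% of the 319 (median log2 2.32) and 4.88% of the 41 (median -0.94) were higher, against 48.8% of all tested. That step uses the 28 DAP libraries on which the lists were chosen, so its direction is partly fixed. In EG integument, whose libraries were not used to choose them, the 319 had a median log2 fold change of -0.16. There 39.8% were higher at 28 DAP, against 51.1% of all tested. The 319 summed to 15593, 2146 and 7325 CPM at 28 DAP and 5173, 5438 and 16872 CPM at 18 DAP in EG. These stages overlapped, and the highest 18 DAP library was replicate 3, as in HG. Deviations of those 2 same-numbered libraries were correlated (r 0.65), so the EG values may not be independent of the choice. In HG nucellus their median was -0.90 and 13.8% were higher, against 49.8% of all tested. The 41 had a median of 0.10 in EG integument, with 56.1% higher, and of 0.75 in HG nucellus, with 82.9% higher. By tissue in EG, 117 of the 319 were called higher in integument (36.7%, against 13.3% of all tested) and 38 higher in nucellus (11.9%, against 9.82%). Of the 41, 10 were called higher in integument (24.4%) and 3 in nucellus (7.32%). Both lists were called from integument libraries, so an excess of integument identifiers may be partly fixed by that choice.

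Some identifiers were detected at 1 stage alone. A set of 67 had at least 3 counts in each 28 DAP library and 0 counts in all 3 at 18 DAP, and 33 had the reverse. Most were near the detection limit: the medians of their mean levels in the stage with counts were 0.474 CPM and 0.580 CPM. The strongest of the first set had 71, 13 and 31 counts at 28 DAP, at least 33.3-fold higher against 3 counts over the group. The strongest of the second had 53, 35 and 74 counts at 18 DAP, at least 62.4-fold lower at 28 DAP. Nearly all were detected in other integument groups. Of the 67, 66 had counts in HG integument at 32 DAP and 66 in EG integument at 18 DAP. Of the 33, 33 had counts in HG integument at 32 DAP and 31 in EG integument at 28 DAP. Of the 67, 50 passed the filter on low counts and could be tested, and none was called. Of the 33, 25 could be tested and 1 was called, where 0.0174% of all tested were. Both sets were picked on the same libraries that the test compares, so these shares cannot be read against each other.

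Short identifiers leaned upward in HG integument and long ones downward. The 28770 identifiers of at least 5 CPM were split by effective length into 5 classes of equal size. The shortest class, up to 1346 bases, had a median log2 fold change of 0.25, with 21.3% higher and 8.36% lower without overlap. The longest class had a median of -0.09, with 10.3% higher and 17.9% lower. The Spearman rho between length and fold change was -0.19 across identifiers. In EG integument the order was the opposite, with medians of -0.07 in the shortest and 0.14 in the longest class. In HG nucellus the medians were 0.06 and 0.08, with no such trend over the 5 classes. The named rises were of 893 and 1255 bases and the named falls of 1181 and 1749 bases. RNA quality is not given in the labels, and its part in this relation was not tested.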

How the data were processed

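Per the labels' protocols, nanogram amounts of RNA from captured tissue were amplified as cDNA and sequenced as paired ends on instruments of 2 models. The labels do not assign libraries to instruments. The authors deposited whole-number read counts per gene identifier, used here as deposited, and FPKM values of the same identifiers, used for effective lengths and an alternative test. The submitters' processing notes name cutadapt, Bowtie2, RSEM and DESeq. Versions, settings and the reference are not given in the sources used, nor whether RSEM's estimated counts were rounded. The columns number the stages 1 to 3, read as 18, 28 and 32 DAP. No label states this, and every stage named here rests on it.

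Of 128861 identifiers, 57344 passed filterByExpr over the 12 groups (minimum count 10, minimum total 15). All 36 libraries entered 1 model with a mean per group, TMM scaling and robust quasi-likelihood F tests (edgeR 4.0.16, R 4.3.3), with 24 residual degrees of freedom. The common biological coefficient of variation was 0.439. Adjustment was by Benjamini-Hochberg over all identifiers tested, with a threshold of 0.05. An SE is the absolute log2 fold change over the square root of F. CPM values are counts scaled to a common library size after TMM. Effective lengths are the median over libraries of counts against FPKM, where a library had at least 20 counts. The script was tested on simulated counts with known changes.

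No table pairing identifiers with gene names was used here, so pathway and marker lists could not be matched. For that reason only the 2 largest rises and 2 largest falls are named, among identifiers called, without overlap between the stages and with at least 5 CPM on average in the higher group. Several identifiers may stand for a single gene, and reads of near-identical copies may be divided among them. The groups, lists and tests were chosen with earlier results of these data known. No pair of libraries within any of the 12 groups agreed within sampling noise (chi-square per degree of freedom of at least 7.98, and of at least 14.2 among the 6 compared). No library was thus a mere repeat sequencing of another. Whether libraries came from separate captured samples cannot be told this way, and each counted once because the replicates are stated as biological. The smallest two-sided p of an exact permutation test with 3 against 3 is 0.1, so single values carry no such test. Alternatives were DESeq2 1.42.0, limma 3.58.1 with voom or on log2 FPKM, other scaling, filters and sets of libraries, a replicate block, and leaving out each library.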

Additional observations from a re-analysis of the deposited data

How the results depend on the processing

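The count of calls in the HG integument step, 10 with all 36 libraries in edgeR, varied widely with the method. DESeq2 called 915, limma voom with sample weights 8735, and limma on log2(FPKM + 0.5), log2(FPKM + 0.1) and log2(FPKM + 1) called 224, 162 and 290. In edgeR the 6 libraries alone gave 360, or 168 with the filter also set on them, an alternative chosen after seeing the data. Leaving out 1 library in turn from the fit on the 6 alone, also chosen after seeing the data, gave 0 to 2079. The 18 integument libraries alone gave 0, with 8570 identifiers at an unadjusted p under 0.05. Leaving out replicate 1 of EG nucellus at 28 DAP, which stands apart, gave 39. Leaving out 1 of the 6 libraries in turn gave 0 to 17. DESeq2 size factors, no filter and a mean of at least 5 CPM gave 8, 10 and 15, and without the filter 4 of the 10 identifiers were shared with the main result. For the difference between the HG and EG steps, DESeq2 called 28, limma voom 361 and leaving out 1 library in turn 0 to 1, where the main result was 0. For the difference between HG integument and HG nucellus, the compared libraries alone gave 15 and leaving out 1 library in turn 0 to 1, where the main result was 0. The fold changes of the 4 named identifiers kept their direction under every alternative. Their calls did not all hold: c35172_g1 was no longer called under 7 alternatives, c83852_g1 and c93268_g1 under 8 each and c94789_g1 under 6, all 4 among them with the 18 integument libraries alone and under the replicate block. The log2 fold change of c94789_g1 was -1.92 on log2(FPKM + 1), where the pseudocount shrinks low values, against -3.48. Without TMM scaling, identifiers without overlap between the stages numbered 5746 higher and 7361 lower, so 43.8% were higher, against 51.0% with it. Leaving out TMM moved the log2 differences by a median of -0.08.

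The replicate numbers were not shown to pair the HG integument libraries of the 2 stages: same-numbered libraries had correlations of their deviations from the group means of -0.10, 0.12 and -0.03, and 1 of the 3 correlated best with its own number. With the number as a replicate block, 3 identifiers were called in the HG step, 2 of them shared with the 10, and none in either difference of steps.

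Depth limits what can be said of low levels. Under 0.5 CPM the SE of a log2 fold change had a median of 1.24, against 0.30 at 20 to 100 CPM.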
